A study of Arabidopsis thaliana with 12 samples.

Results

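AT3G51320 and AT3G26630, which encode pentatricopeptide repeat (PPR) proteins, and AT1G79220, which encodes a protein of the mTERF family, were followed across arrays of wild type (WT) and of prpl11 in Arabidopsis thaliana. The 3 genes were taken, with results of these data known, because their transcripts were higher in prpl11, and each was read from its one probe that listed no other gene. They are 3 of the 15 genes with such a probe on a list of PPR and mTERF loci that is not a full catalogue of either family, of 692 single-gene probes and of 3439 probes in all. The arrays, 6 per genotype and numbered 1 to 6 in each, held total RNA of ecotype Columbia 0. The prpl11 plants lack PRPL11, a protein of the plastid ribosome's large subunit, and WT plants carry it. The labels name no allele, tissue, plant age or growth condition, and nothing in them says that same-genotype arrays came from separate plants, so the spread between arrays may be technical. PRPL11 itself had no single-gene probe and so gave no check of the genotype labels, and with no tissue named there was no marker list to examine.

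PPR proteins are RNA-binding proteins encoded in the nucleus that act in chloroplasts and mitochondria, where they take part in editing, splicing, cleavage, stability and translation of organellar transcripts. A PPR protein is built from tandem repeats that each contact a base of the target RNA, so that many members serve one or a few transcripts each. mTERF proteins, named after the mitochondrial transcription termination factor of animals, are also built from tandem helical repeats and act in organellar transcription, splicing and ribosome assembly in plants. No source used here names the organellar RNA targets of AT3G51320, AT3G26630 and AT1G79220.

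The values are deposited intensities in arbitrary units. The intensities of an array summed to 3597 to 3678, their median was 0.567 to 0.611, and 138 to 148 probes per array were listed at 0. Neighbouring replicate numbers within a genotype (1 and 2, 3 and 4, 5 and 6) differed by a median of 0.084 on the log2 scale, against 0.16 for other arrays of that genotype. The 3 groups of 4 arrays that this makes are called sets below, and values are given within them. In bulk RNA, fewer cells of a type and less RNA per cell cannot be told apart.

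AT3G51320 was the dimmest of the 3 genes. In WT its intensity was 0.168 on the lowest array, 0.188 at the median and 0.226 on the highest, and in prpl11 the corresponding values were 0.205, 0.242 and 0.259. WT replicate 4 lay above prpl11 replicates 5 and 6 and WT replicate 2 above prpl11 replicate 6, so the deposited values of the genotypes overlapped, and the other 4 prpl11 arrays lay above every WT array. The means were 0.194 ± 0.022 in WT and 0.236 ± 0.022 in prpl11 (SD, n = 6 arrays each), a ratio of 1.22. Over all 12 arrays only 11.5% of probes were dimmer.

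AT3G26630 was bright, with a mean over the 12 arrays above that of 95.9% of probes. In WT its intensity was 2.37 on the lowest array, 2.53 at the median and 2.85 on the highest. In prpl11 it was 2.63, 2.81 and 2.98. The genotypes overlapped through WT replicate 3, the highest WT array, which lay above prpl11 replicates 1, 2 and 6. The means were 2.56 ± 0.16 in WT and 2.81 ± 0.13 in prpl11 (SD, n = 6), a ratio of 1.10.

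AT1G79220, the mTERF gene, lay between them in brightness, above 83.0% of probes. Its WT intensities had a lowest value of 0.853, a median of 0.998 and a highest value of 1.06. Its prpl11 intensities had 1.01, 1.17 and 1.24. The overlap came from prpl11 replicate 3, whose same-numbered WT array was also the lowest of its genotype, and the other 5 prpl11 arrays lay above every WT array. The means were 0.987 ± 0.073 in WT and 1.15 ± 0.086 in prpl11 (SD, n = 6), a ratio of 1.17. Brightness of different probes depends on the probe as well as the transcript, so the order of the 3 genes is one of signal and not of transcript number.

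**Figure D1:**
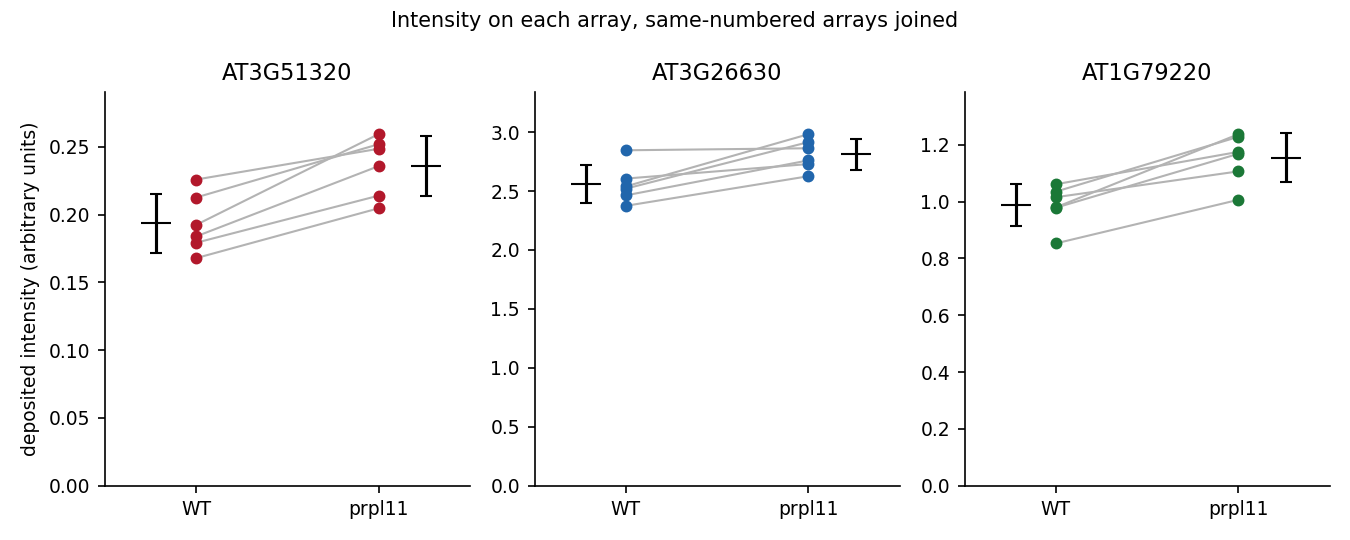
Deposited intensity (arbitrary units) of AT3G51320, AT3G26630 and AT1G79220 on the 6 WT and 6 prpl11 arrays. Points are arrays, grey lines join same-numbered arrays, and black marks show the mean and SD of each genotype. All joining lines go up, and the genotypes overlap in each panel.

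Within same-numbered arrays each gene was higher in prpl11 in 6 of 6 pairs, on the deposited values and after quantile normalization. Of all 3331 tested probes, 10.1% had this outcome on the deposited values and 13.7% after normalization, and the genes were chosen from this contrast, so the pairs add no support. On deposited values the prpl11 array of AT3G51320 exceeded its WT partner by 10.1% (replicate 4) to 34.8% (replicate 1). For AT3G26630 the excess ran from 0.603% (replicate 3) to 17.4% (replicate 4). For AT1G79220 it ran from 8.96% (replicate 4) to 26.3% (replicate 6). After normalization the smallest log2 difference of AT1G79220 was in replicate 1, at 0.11, and the largest of AT3G51320 in replicate 3, at 0.51. Which pair held these 2 extremes thus depended on the scaling. The lowest pair of AT3G51320, the highest of AT1G79220 and both extremes of AT3G26630 stayed in the same replicate.

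By set, the difference after normalization was of similar size throughout for AT3G51320. Its log2 difference was then 0.34 in replicates 1 and 2, 0.38 in replicates 3 and 4 and 0.32 in replicates 5 and 6. On deposited values it was 0.34, 0.25 and 0.27 in the same order. After normalization AT3G26630 had 0.22, 0.18 and 0.31 in that order. AT1G79220 had 0.17, 0.20 and 0.34. For both AT3G26630 and AT1G79220 the largest set value came from replicates 5 and 6, and without those replicates of both genotypes the log2 change was 0.20 for AT3G26630 and 0.19 for AT1G79220, against 0.33 for AT3G51320.

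**Figure D2:**
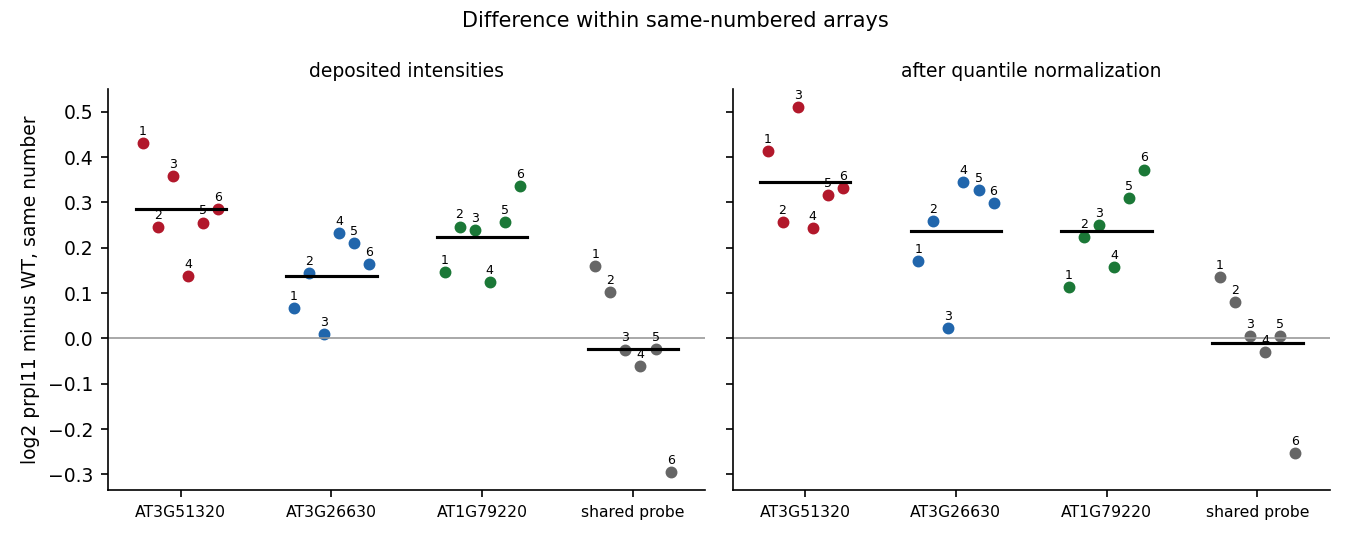
Log2 difference, prpl11 minus WT, within each same-numbered pair of arrays for the 3 genes and for the probe that lists AT3G26630 with AT2G42920, from deposited intensities (left) and after quantile normalization (right). Points are pairs labelled with their number and bars are means. All points of the 3 genes lie above 0, while the shared probe has 2 of 6 pairs above 0 on the deposited values and 4 of 6 after normalization.

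The limma fit over all 3331 probes gave the changes by which the genes were chosen, which are repeated here as a description. After quantile normalization the log2 change, prpl11 minus WT, was 0.35 ± 0.06 for AT3G51320, 0.24 ± 0.06 for AT3G26630 and 0.24 ± 0.06 for AT1G79220 (SE, n = 6 arrays per genotype). These are folds of 1.27, 1.18 and 1.18. The fit called 2.46% of probes higher in prpl11 and 3.06% lower at an adjusted p threshold of 0.05. AT3G51320 and AT3G26630 were inside that threshold and AT1G79220 just outside it, with limma adjusted p of 0.0016, 0.0304 and 0.0511. The next gene of the list outside it was AT3G18870, at 0.107. With neighbouring numbers averaged none of the 3 genes was called, where 0.69% of all probes were. Their limma adjusted p were then 0.148, 0.538 and 0.594 in the same order. With a random block for each genotype and set these p were 0.157, 0.403 and 0.51. The SE of the log2 changes were then larger than in the main fit, at 0.105, 0.093 and 0.102. With the replicate number as a block the limma adjusted p were 0.0012, 0.0124 and 0.0062. Ranked by size, the changes of AT3G51320, AT1G79220 and AT3G26630 were the 66th, the 169th and the 170th highest of the 3331.

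How large the changes appeared depended on the scaling between arrays, most for AT3G26630. On the deposited values without normalization the log2 change was 0.29 for AT3G51320, 0.14 for AT3G26630 and 0.22 for AT1G79220. The change of AT3G26630 thus moved by more than 1.5 times, and its rank among all probes was then the 352nd. With median centring of each array it was 0.15. The scalings moved the median change of all probes little, from -0.01 without normalization to 0.01 after quantile normalization. At the brightness of AT3G26630 they differed more: the 200 probes nearest to it in brightness had a median log2 change of -0.05 on deposited values and 0.04 after quantile normalization. Taken relative to such probes, the deposited change was 0.19 for AT3G26630, 0.33 for AT3G51320 and 0.23 for AT1G79220. Among the 200 nearest probes on the normalized scale, 0.5% had a larger change than AT3G51320, 5% a larger one than AT1G79220 and 15.5% a larger one than AT3G26630.

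**Figure D3:**
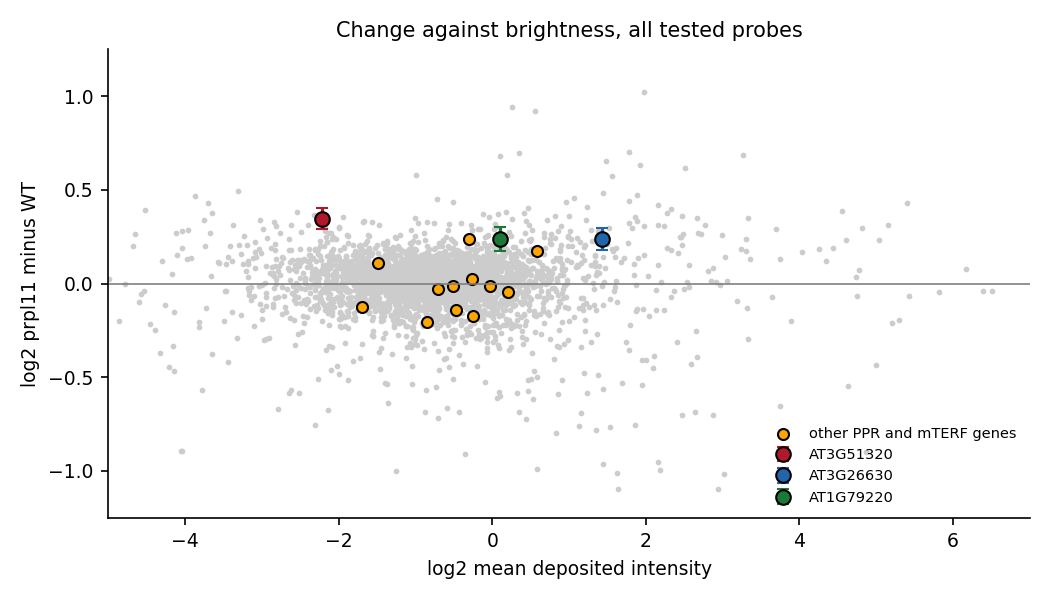
Log2 change, prpl11 minus WT, after quantile normalization against log2 mean deposited intensity for the tested probes (grey), with the 3 genes (bars, SE) and the other 12 PPR and mTERF genes (orange). The axes leave out 43 of 3331 probes below -5 on the horizontal axis and 8 changes beyond the vertical range. AT3G51320 lies at the dim end, and the other PPR and mTERF genes lie on both sides of 0.

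Noise rose toward low intensity. The median SD between arrays of a genotype was 0.24 on the normalized log2 scale in the 334 dimmest tested probes, which include AT3G51320, 0.12 in the 333 probes between intensities of 1.01 and 1.47, which include AT1G79220, and 0.13 in the 333 brightest, which include AT3G26630. All 3 genes varied less than the median probe of their brightness. AT3G51320 had an SD of 0.082, and none of the 200 probes nearest in brightness had a smaller one (their median was 0.19, with 0.12 at the 10th percentile). AT3G26630 had 0.089 against a median of 0.13, and AT1G79220 had 0.11 against 0.12. A small spread favours a call, and its part in the choice of these genes was not tested.

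The small spread of AT3G51320 came with the normalization. On the deposited log2 scale its SD was 0.15, within the ordinary range for its brightness, where 33% of the nearest 200 probes had a smaller one. In prpl11 alone its SD went from 0.14 on the deposited scale to 0.034 after quantile normalization, and in WT from 0.16 to 0.11. Its place on each array shows the same: between 8.99% and 11.5% of probes were dimmer than AT3G51320 on WT arrays and between 13.3% and 14.5% on prpl11 arrays. These places did not overlap between genotypes. Nor did its normalized values, an outcome that 2.19% of tested probes had in this direction. Its deposited values did overlap, with 4 of 6 prpl11 arrays above every WT array. On that scale 1.62% of tested probes had no overlap in this direction. After normalization 4 of 6 prpl11 arrays for AT3G26630 and 5 of 6 for AT1G79220 lay above every WT array. The floor at 0.0583 lay below every value of AT3G51320 and left them as they were. An added offset weighs on so dim a probe: when 0.236, the 10th percentile of the positive intensities and about the level of AT3G51320 itself, was added to every value in place of the floor, the log2 change of AT3G51320 was 0.16, while AT3G26630 had 0.22 and AT1G79220 0.19.

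**Figure D4:**
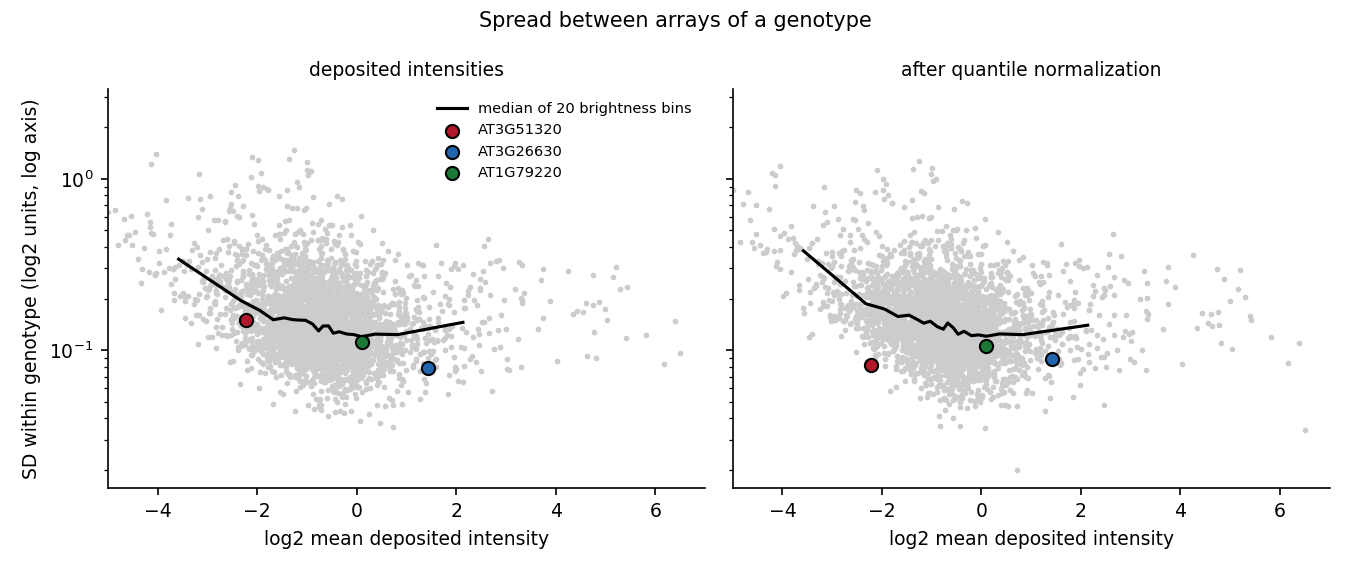
SD between arrays of a genotype (log2 units, log axis) against log2 mean deposited intensity for tested probes (grey), with the median over 20 brightness bins (line) and the 3 genes, on the deposited scale (left) and after quantile normalization (right). AT3G51320 moves from 0.15, near the line, to 0.082, well under it, while AT3G26630 and AT1G79220 stay close to their place. Probes below -5 on the horizontal axis are not shown.

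A second probe lists AT3G26630, together with AT2G42920, and so cannot be assigned to either gene. It was dimmer than the single-gene probe, with a WT mean of 1.03 ± 0.098 and a prpl11 mean of 1.02 ± 0.14 (SD, n = 6). Its intensity in WT had a lowest value of 0.891, a median of 1.01 and a highest value of 1.16, and in prpl11 it had 0.876, 0.985 and 1.24, so the genotypes overlapped over nearly their whole range. The log2 change was -0.01 ± 0.08 after normalization (SE) and -0.02 on deposited values. By set its normalized difference was 0.11 in replicates 1 and 2, -0.01 in replicates 3 and 4 and -0.12 in replicates 5 and 6. The set with the largest difference for the single-gene probe of AT3G26630 was thus the one with the lowest for the shared probe. Which of the transcripts the shared probe mainly reads was not tested.

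The other PPR and mTERF genes give the setting of these 3. The list held 88 loci of both families, drawn up from general knowledge and gene names and not a full catalogue, and 15 had a tested probe of their own. Further genes of these families may be among the single-gene probes and are not counted here. Of these 15, 2 were called higher, AT3G51320 and AT3G26630, none lower and 13 neither, where the fit called 2.46% of all probes higher. With a random block for each genotype and set (estimated correlation 0.673) 0 of the 15 passed in limma, where 2.16% of all probes were called in either direction. At an unadjusted limma p under 0.05 there were 5 of the 15, which include the 3 chosen genes. The share of all probes at that p was not computed for this fit, so no result about the families is drawn from this count. In the main fit the median log2 change of the 15 was -0.01, against 0.01 over all probes, and 7 of 15 changes were above 0. Of the 12 genes other than the chosen 3, none was called in limma, and at an unadjusted p under 0.05 there were 2 higher and 1 lower, where 8.59% of all probes were higher and 7.66% lower at that p. This contrast also chose the 3 genes, so the split between them and the other 12 is by construction.

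AT5G55580, listed as mTERF9, had the highest change among these 12, with a WT mean of 0.746 ± 0.037 and a prpl11 mean of 0.880 ± 0.15 (SD, n = 6). Its log2 difference of 0.24 ± 0.09 (SE) did not pass, at a limma adjusted p of 0.18, but with array weights it was 0.30 ± 0.08 (SE) and passed (limma adjusted p = 0.0465). It was as large as those of AT3G26630 and AT1G79220, with a larger spread between prpl11 arrays. AT3G18870 followed at 0.18 ± 0.06 (SE) and was higher in prpl11 in 6 of 6 pairs. At the other end AT3G46950 had -0.20 ± 0.12 and AT4G09620 -0.17 ± 0.08 (SE), lower in prpl11 in every pair, since 0 of 6 pairs were higher for either gene. Among the named PPR genes, OTP85 and CRR21 encode editing factors for transcripts of the plastid NDH complex, and OTP70 acts in splicing of a plastid RNA polymerase transcript. OTP85 had a log2 change of 0.11, OTP70 -0.04 and CRR21 -0.14, and none of them passed. A second list, of 40 other nuclear genes for organellar transcription and RNA processing such as sigma factors and subunits of the plastid polymerase complex, had no member with a single-gene probe and gave no values.

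When the replicate number entered the fit as a block, to remove what same-numbered arrays share, 6 of the 15 passed, where 10.3% of all probes were called higher and 9.19% lower. They were AT3G51320, AT3G26630, AT1G79220 and AT3G18870, higher, and AT3G22690 and AT3G46950, lower. AT3G22690 had a log2 change of -0.13. When neighbouring numbers were averaged and the set was kept as a block, AT3G51320 alone of these 6 passed (limma adjusted p = 0.0283), where 4.14% of all probes were called in either direction; AT3G26630 had 0.0772 and AT1G79220 0.0934. Without normalization 0 of the 15 passed in limma, where 5.43% of all probes were called in either direction. With neighbouring numbers averaged 0 passed in limma, where 0.69% of all probes were called. At an unadjusted limma p under 0.05 there were 5 and 3 of the 15 in these fits. The share of all probes at that p was not computed for them, so these counts have no background and no result is drawn from them. The number of called PPR and mTERF genes thus ranged from 0 to 6 with the treatment of scale and pairing.

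**Figure D5:**
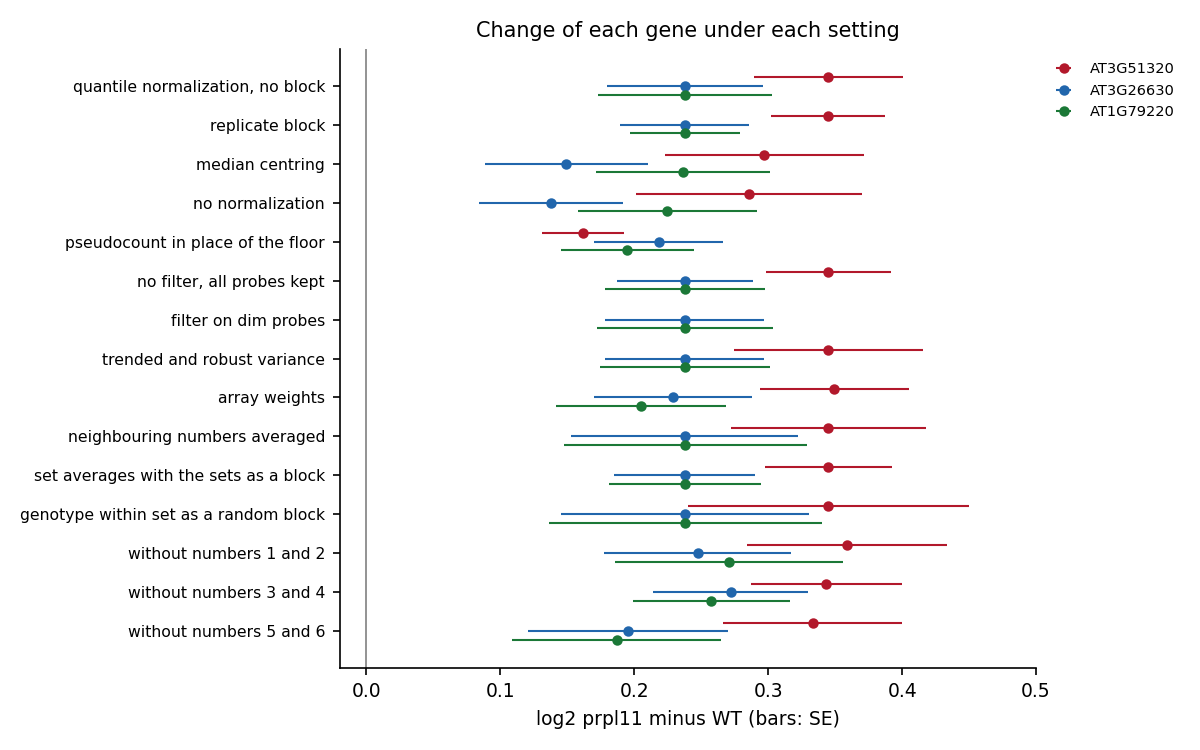
Log2 change, prpl11 minus WT, of the 3 genes under quantile normalization without a block and under the alternative settings other than single left-out arrays; bars are SE. All values are above 0. AT3G26630 is lowest without normalization (0.14) and AT3G51320 with the pseudocount (0.16), and AT3G51320 has no value under the filter on dim probes, which removes it.

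The patterns over the 12 arrays were compared by the root mean square difference of log2 values, each probe centred on its WT mean, over the other 664 tested single-gene probes. Closest to AT3G51320 was CUTA, at 0.094 on the log2 scale where the median probe was at 0.29, followed by NdhS, a subunit of the plastid NDH complex, at 0.11 and AT3G23940 at 0.11. CUTA was far brighter than AT3G51320, with a WT mean of 6.28 ± 0.36, a prpl11 mean of 7.33 ± 0.62 (SD, n = 6) and a log2 change of 0.31. AT1G79220 was the 4th closest to AT3G51320, at 0.13, and AT3G26630 the 18th, at 0.16. The measure takes in the genotype difference by which the 3 genes were chosen, so closeness among genes with like changes is built into it.

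AT3G26630 and AT1G79220 had like log2 changes after normalization, 0.24 each, but 0.14 and 0.22 on deposited values. Their closest probes differed. Closest to AT3G26630 were AT2G33180 (0.079), AT2G21530 (0.090) and AT1G80450 (0.098), where the median probe was at 0.23. Closest to AT1G79220 were AT3G20490 (0.085), AT4G33540 (0.10) and AT2G38070 (0.10), where the median probe was at 0.23. AT3G26630 and AT1G79220 lay 0.15 apart on this scale, each at the 64th place from the other and nearer than the median probe. They parted on replicate 3, where AT3G26630 had its highest WT array and AT1G79220 its lowest in both genotypes.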

How the data were processed

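The authors' deposited values, 1 intensity per probe and array on a linear scale for 12 arrays, were used. The array sums show a scaling between arrays; no source used here gives the scanner, background correction or normalization. Values at 0 were raised to 0.0583, the 1st percentile of positive intensities, log2 was taken, and arrays were quantile normalized because their log2 medians ranged over 0.11, above a limit of 0.1. The 108 probes at 0 on every array were left out, and 3331 were tested.

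Differences are prpl11 minus WT from limma 3.58.1 in R 4.3.3 (lmFit, eBayes, no block), with Benjamini-Hochberg adjustment over all 3331 probes. The fit was tested on simulated data, and no error rate for these arrays is drawn from that. The main fit takes the arrays as independent, while the random block for each genotype and set gave an estimated correlation of 0.673. The error rate of the main fit under such correlation was not tested. Genes were named from probes with 1 listed gene, with names from RefSeq's TAIR10.1 annotation, which lacked 2 of the 692. No sequence was used here.

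Deviations from the genotype means correlated between same-numbered WT and prpl11 arrays at 0.288 to 0.514 in the 6 pairs. From the data and not from the labels, the numbers were treated as pairing arrays in the within-pair differences and the replicate block. The main fit, with its SE, calls and adjusted p, did not use the pairing. No 2 arrays held identical values. Genes named besides the 3 are the called members of the lists, the 2 highest and 2 lowest changes, and the 3 most similar probes for each gene; OTP70, OTP85, CRR21 and AT3G22690 were named after their values were seen. The 3 genes and the lists were chosen with earlier results of these data known. Figures were drawn with matplotlib 3.10.9.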

Additional observations from a re-analysis of the deposited data

Results flagged for a closer look

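For 16 named genes, each genotype's 6 arrays were searched for a value set apart from the rest. Such a value was found in 3 of these 32 groups, and chance alone gives about 1 group in 20. WT replicate 3 of AT3G26630 had a normalized log2 value of 1.51, above the range of 1.20 to 1.30 of the other WT arrays. The gap to its nearest neighbour made up 0.692 of the range. When it was left out, AT3G26630 changed by 0.28 on the log2 scale, against 0.24 with all arrays. WT replicate 3 of AT3G20490, one of the genes closest in pattern to AT1G79220, had -0.79, below the -0.58 to -0.47 of the others. WT replicate 5 of AT2G38070 had -2.11, above the -2.36 to -2.27 of the others.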

How the results depend on the processing

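The log2 changes of the 3 genes stayed above 0 in every alternative run, 26 each for AT3G26630 and AT1G79220 and 25 for AT3G51320, which the filter on dim probes removed. They ranged from 0.16 to 0.38 for AT3G51320, 0.14 to 0.28 for AT3G26630 and 0.19 to 0.28 for AT1G79220. The value moved by more than the spread between arrays for AT3G26630 without normalization (0.14; the cause was not tested) and for AT3G51320 with the pseudocount (0.16), which is about as large as its own intensity and shrinks its log ratio by construction. Without single arrays the changes ran from 0.32 to 0.38, 0.22 to 0.28 and 0.20 to 0.28. The 3 genes were chosen from the same contrast of prpl11 and WT, and the fits share arrays. The counts that follow describe the settings and add no support. The limma adjusted p was under 0.05 in 22 of 25, 10 of 26 and 6 of 26 alternatives for AT3G51320, AT3G26630 and AT1G79220, with highest values of 0.157, 0.538 and 0.594. Without single arrays it was under 0.05 in 12 of 12, 3 of 12 and 1 of 12 fits. AT3G26630 stayed under it when prpl11 replicate 1, prpl11 replicate 2 or WT replicate 3 was left out, and AT1G79220 reached it without prpl11 replicate 3.

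Over all probes 184 were called, 82 higher and 102 lower, and 142 to 179 without single arrays. The replicate block gave 649, averaging of neighbouring numbers 23, genotype within set as a random block 72, and leaving out replicates 1 and 2 or 3 and 4 of both genotypes 111 and 89. Calls split into 59 higher and 122 lower with median centring and 51 and 130 without normalization. Of the 15 PPR and mTERF genes, 2 were called. The count was 6 with the replicate block and 1, AT3G51320, with median centring, with set averages and the sets as a block (138 of all probes), or without either replicates 1 and 2 or 5 and 6 (190 of all probes without the latter). It was 0 without normalization, with averaging and with the random block, and 1 to 2 without single arrays. With the pseudocount, all probes kept, trended and robust variance, or array weights it was 3, where 207, 214, 193 and 215 of all probes were called. AT1G79220 was among the called genes in each of these fits but that with array weights, where AT5G55580 was called instead. With the filter on dim probes AT3G26630 and AT1G79220 were called, 2 of 14 (182 of all probes). The fits with 0 had 5, 3 and 5 of the 15 at an unadjusted limma p under 0.05. For these fits the share of all probes at that p was not computed, and no result about the families is drawn from the counts. The fits on averaged numbers and those with arrays left out have fewer values and fewer residual degrees of freedom. The fits without normalization and with the random block used all 12 arrays. The part of this in the counts was not tested. The number of arrays limits the precision, and signal over background is not given in the sources used here.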

Other observations

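The log2 changes of probes whose deposited numbers differ by 288 or by 6 correlated at 0.17 across probes in both cases, against a median of 0.016 over distances of 1 to 600, which was seen after the data were examined. Probes are not independent replicates. Among tested probes at the 4 distances with the highest correlations, 6, 282, 288 and 294, from each gene's probe, the median log2 change was 0.04 for the 5 around AT3G51320, 0.02 for the 8 around AT3G26630 and 0.05 for the 4 around AT1G79220. Of these neighbours, 0, 1 and 1 were called higher and none lower in limma, where 2.46% of all probes were called higher. The highest neighbour had 0.15, 0.39 and 0.70 on the log2 scale in the same order, the latter pair above the changes of AT3G26630 and AT1G79220 themselves. The part of probe position in the changes of the 3 genes was not tested.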
